A study of Mus musculus with 23 samples.

Results

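RUNX1-ETO is a leukaemic fusion protein that joins the DNA-binding part of the transcription factor RUNX1 to nearly all of ETO, the product of Runx1t1. Genes for 7 proteins known to bind the fusion were followed on expression arrays. Ncor1 and Sin3a encode scaffolds of corepressor complexes, Hdac1, Hdac2 and Hdac3 encode histone deacetylases that work in such complexes, and Ep300 and Prmt1 encode a histone acetyltransferase (p300) and an arginine methyltransferase that act as coactivators. The genes were chosen by name, with earlier results of these data known. Each was read from the probe whose RefSeq identifier maps to its symbol, taking the probe of highest mean where a gene had several, and all 7 of 7 were among the 15202 genes tested, out of 20145 genes with a symbol on the array.

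The arrays came from mouse embryonic stem cells of the A2lox line, with C57BL/6 given as the strain, in which an HA-tagged RUNX1-ETO is expressed from a locus that doxycycline (Dox) switches on. All groups, the controls included, carried this transgene, so that the comparison is between the same cells with and without Dox. Flk1+ cells of embryoid bodies were placed in blast culture, where haemangioblasts form endothelium and then blood, Dox was added or left out from day 1, and cells were sorted on day 2 as haemogenic endothelium (HE, KIT+ Tie2+ CD41-), CD41+ haemogenic endothelium (HE2, KIT+ Tie2+ CD41+) or progenitors (Prog, KIT+ Tie2- CD41+). The myeloidProg cells were floating progenitors expanded with stem cell factor, Flt3 ligand and thrombopoietin, again with or without Dox. For these cells Dox was added on seeding in the expansion medium and left overnight, not given in the blast culture. Timing of Dox and stage therefore differ together between myeloidProg and the other stages. Each of these 8 groups had 3 arrays, apart from 2 Prog arrays without Dox and 2 with Dox, and an additional technical array of Prog cells without Dox entered the normalization and not the fit. The titles call the arrays of a group biological replicates, though title and description of induced myeloidProg array 3 differ on this. The labels do not say how many picked clones the cells came from. In such samples fewer cells of a type and less RNA per cell cannot be told apart.

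The ETO part of the fusion binds the corepressor NCoR and the SIN3A scaffold, which bring histone deacetylases to RUNX1 target genes, where removal of acetyl groups from histones goes with repression. The fusion also activates genes, and p300, which acetylates it, and PRMT1, which methylates its RUNX1 part, have been tied to that activity. In the embryo RUNX1 is needed for haemogenic endothelium to give rise to blood cells, and corepressors and coactivators of this kind are used by most cell types. The arrays measure mRNA, not protein or binding.

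Across the series the arrays lay on 3 slides. HE and HE2 arrays, both uninduced Prog arrays and induced Prog array 1 lay on slides 1 and 2, whereas all myeloidProg arrays, induced Prog array 2 and the additional array lay on slide 3, which was scanned on another day. Between 48.8 and 78.4% of an array's spots (median 65.6%) were well above background, 0 were saturated, and the probes of the 7 genes were well above background on 23 of 23 arrays. Runx1t1, the gene of the ETO part, was higher with Dox by 1.24 (log2, SE 0.335, limma adjusted P = 0.0155) in HE and was called higher in HE2 (2.08), Prog (3.96) and myeloidProg (2.06). Cell type markers moved with Dox too. Of the mast cell genes 2 of 4 were tested and both were called higher in the mean over stages, their summed log2 level being 8.3 to 10.1 on uninduced and 13.3 to 15.1 on induced arrays, and 4 of 6 endothelial genes were called higher, while 4 of 6 myeloid genes and 3 of 5 cardiac and smooth muscle genes were called lower. Of all genes 5.76% were called in the mean over stages. The mean summed log2 level of erythroid genes went from 15.2 to 17.8 with Dox in HE and 16.5 to 18.4 in HE2. In Prog it went from 17.5 to 18.7 and in myeloidProg from 19.6 to 19.4. In the same order epithelial genes went from 15.1 to 13.1, 14.4 to 11.7, 13.4 to 12.6 and 11.9 to 12.1. Megakaryocyte genes went from 15.1 to 13.3 in myeloidProg, and endothelial genes stayed at 16.4 in HE. The part of these cell types in the values below was not tested.

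Induction of RUNX1-ETO changed the mRNA of none of its 7 partners past the threshold used here, an unadjusted P of at most 0.001 with a change of at least 2-fold. With Dox 0 of 7 were called in HE, where 7.09% of all genes tested were called, 0 of 7 in HE2 (7.22% of all genes), 0 of 7 in Prog (3.73%) and 0 of 7 in myeloidProg (6.31%). At an unadjusted P of at most 0.05, 1 of the 7 genes passed in HE (26.9% of all genes), 0 in HE2 (29.5%), 0 in Prog (20.2%) and 2 in myeloidProg (25.4%). The mean response to Dox over the 4 stages pools all 22 arrays, and with them both timings of Dox. It gave 0 of 7 against 5.76% of all genes, and 6 of the 7 fitted means lay below 0. The median over the 7 genes was -0.14 on the log2 scale, beside -0.03 over all genes. On the probes representing the genes, all 7 of the 95% intervals of this mean lay within a 2-fold change in either direction. A larger mean change lay outside each of these intervals. For other probes of Ncor1 and Hdac1 the intervals also lay within 2-fold, but that of the second Prmt1 probe was -1.85 to 0.22. In single stages the intervals were wider, and they lay within 2-fold for 4 of 7 genes in HE, 3 in HE2, 4 in Prog and 4 in myeloidProg.

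At an adjusted P of at most 0.05, with no minimum change, 1 of the 7 genes passed in the mean over stages. This was Prmt1, which fell with Dox on its representing probe. Of all genes 35.4% passed there and 16.5% passed as lower. The other probes of Hdac1 fell too (limma adjusted P = 0.00102 and 0.0408), while the second Prmt1 probe did not pass (0.220). On the representing probes 0 of 7 passed at that threshold in single stages. Beside them stand 15.6% of all genes in HE, 17.2% in HE2, 5.53% in Prog and 13.8% in myeloidProg. In 1 of 35 alternative settings each, Ncor1 (limma adjusted P = 0.0487), Hdac3 (0.0483) and Prmt1 (0.0156) passed in myeloidProg. Hdac1 passed in HE in 1 of 35 (0.0496), and its first other probe passed in myeloidProg (0.00757). A difference in the response between stages was tested as an interaction term, and 0 of 7 genes were called between HE and HE2 (1.34% of all genes), HE2 and Prog (0.645%), HE and myeloidProg (4.72%) or Prog and myeloidProg (1.5%). The smallest adjusted P among these terms was 0.461, for Hdac1 between HE and myeloidProg. In the terms with myeloidProg the timing of Dox differed along with the stage, and its part was not tested.

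**Figure D1:**
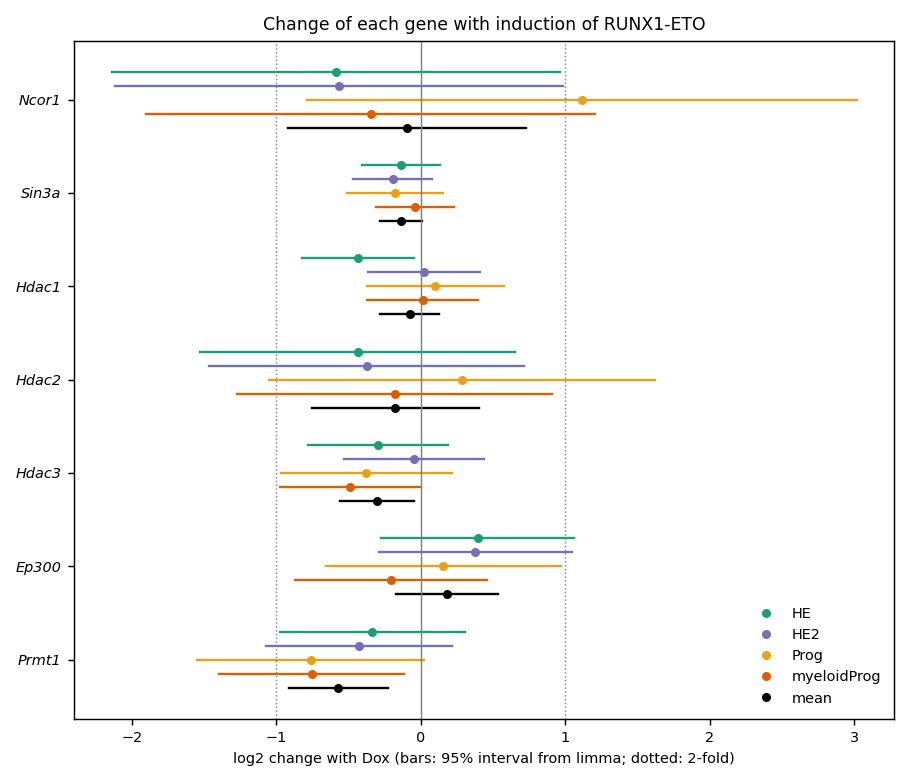
Change of each gene with Dox. The x axis is the log2 change, points are fitted differences in each stage and their mean over the 4 stages, bars are 95% intervals from limma and dotted lines mark a 2-fold change. The interval of the mean over stages lies below 0 for Prmt1 (-0.91 to -0.23) and for Hdac3 (-0.56 to -0.05), and it spans 0 for the other 5 genes.

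Prmt1 encodes the enzyme that adds most of the asymmetric dimethyl marks to arginines of histone H4 and other proteins. Its log2 intensity without Dox was 15.66, 15.72 and 15.55 in HE, 15.94, 15.81 and 15.79 in HE2, 15.77 and 15.58 in Prog, and 14.88, 14.56 and 14.95 in myeloidProg. With Dox it was 15.54, 15.34 and 15.04 in HE, 15.35, 15.86 and 15.05 in HE2, 15.49 and 14.33 in Prog, and 13.81, 14.80 and 13.50 in myeloidProg. All induced HE and Prog arrays lay below all uninduced ones, while in HE2 and in myeloidProg 1 induced array lay within the uninduced range. The fitted change was -0.34 in HE (adjusted P = 0.565), -0.43 in HE2 (adjusted P = 0.395), -0.76 in Prog (adjusted P = 0.264) and -0.76 in myeloidProg (95% interval -1.40 to -0.11, adjusted P = 0.117). The mean over stages was -0.57 (SE 0.162, 95% interval -0.91 to -0.23, limma adjusted P = 0.0101), a fall of 1.49-fold. The Prog value rests on induced array 2, on slide 3, and was -0.18 without it. With single arrays left out the myeloidProg value ran from -1.14 (limma adjusted P = 0.0156, without induced array 2) to -0.49. Its adjusted P was at most 0.05 in 1 of these 22 fits and reached 0.436. None of the stages passed on its own with all arrays, and the responses in HE and myeloidProg differed by -0.42 (95% interval -1.33 to 0.49).

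Within slides Prmt1 was lower with Dox in each of the 6 comparisons a slide allowed. The difference was -0.15 on slide 1 and -0.36 on slide 2 in HE, -0.52 and -0.34 in HE2, -0.28 between 1 array and 1 array of Prog on slide 1, and -0.76 in myeloidProg on slide 3. With the slide as a block the mean response was -0.42 (adjusted P = 0.0487). Leaving out 1 array at a time, it ranged from -0.72 to -0.43 and its adjusted P stayed at or below 0.0419 in 22 of 22 fits. Markers of dividing cells moved in the same direction. In the mean over stages 5 of 8 were lower at an adjusted P of at most 0.05, beside 16.5% of all genes. Their summed log2 level was 17.2 to 17.3 on uninduced and 16.3 to 16.9 on induced HE arrays. It was 17.5 to 17.7 and 17.0 to 17.4 in HE2, 17.5 to 17.6 and 17.4 to 17.8 in Prog, and 17.8 to 17.9 and 17.3 to 17.6 in myeloidProg. Over the 22 arrays the level of Prmt1 correlated with that summed level at r = -0.19. This is a description with group means left in, so that differences between stages enter it. The part of cell division was not tested.

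A second Prmt1 probe was far noisier. Its values without Dox were 14.31, 12.04 and 15.02 in HE, 14.68, 11.99 and 14.57 in HE2, 14.48 and 13.55 in Prog, and 13.20, 13.33 and 13.57 in myeloidProg. With Dox they were 13.90, 11.54 and 13.12 in HE, 13.75, 14.22 and 10.47 in HE2, 14.13 and 12.74 in Prog, and 12.35, 13.18 and 12.13 in myeloidProg. The groups overlapped in HE, HE2 and Prog, whereas all 3 induced myeloidProg arrays lay below the uninduced ones. The fitted changes were -0.93 in HE, -0.93 in HE2, -0.58 in Prog and -0.82 in myeloidProg, and their mean of -0.82 had an adjusted P of 0.220. With the mean of a gene's probes in place of the probe of highest mean, the mean response of Prmt1 was -0.69 with an adjusted P of 0.0730, past the 0.05 threshold no longer.

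The promoters of 3 of the genes are shown. They are those of Prmt1, whose representing probe fell with Dox, and of the 2 genes, among 5 searched, that held a RUNX sequence. RUNX factors bind TGTGGT or TGCGGT. Each runs from 250 bases before to 50 bases after the start of transcription, 5′ to 3′ on the strand of the gene, taken from RefSeq on GRCm38.p6, and capitals mark TGTGGT or TGCGGT on either strand. Searched were 7 promoters of 5 of the 7 genes, Ncor1, Hdac2, Sin3a, Ep300 and Prmt1. No promoter of Hdac1 or Hdac3 was searched. The Prmt1 promoter is at chr7:44986371-44986670 on the minus strand, an Ncor1 promoter at chr11:62438466-62438765 on the minus strand, and the Hdac2 promoter at chr10:36974294-36974593 on the plus strand.
Prmt1: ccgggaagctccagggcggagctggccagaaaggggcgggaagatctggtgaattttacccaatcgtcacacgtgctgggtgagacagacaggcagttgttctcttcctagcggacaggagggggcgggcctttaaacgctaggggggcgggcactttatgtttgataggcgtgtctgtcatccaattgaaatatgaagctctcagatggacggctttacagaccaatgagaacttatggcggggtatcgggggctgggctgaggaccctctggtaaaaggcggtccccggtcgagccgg
Ncor1: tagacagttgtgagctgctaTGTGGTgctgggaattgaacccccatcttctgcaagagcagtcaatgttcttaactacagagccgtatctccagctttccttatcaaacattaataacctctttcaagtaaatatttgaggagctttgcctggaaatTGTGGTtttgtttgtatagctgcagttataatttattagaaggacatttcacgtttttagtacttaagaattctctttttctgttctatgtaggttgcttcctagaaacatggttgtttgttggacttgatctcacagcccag
Hdac2: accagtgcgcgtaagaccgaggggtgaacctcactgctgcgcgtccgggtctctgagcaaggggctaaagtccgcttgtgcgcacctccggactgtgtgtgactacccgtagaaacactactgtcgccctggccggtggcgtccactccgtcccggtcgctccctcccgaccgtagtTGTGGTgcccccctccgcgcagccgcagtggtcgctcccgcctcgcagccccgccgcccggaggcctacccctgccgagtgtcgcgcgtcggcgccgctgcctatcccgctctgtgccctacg
The Prmt1 promoter held neither RUNX sequence. It had 3 matches to CCAAT, 4 to GGGCGG and 4 to CANNTG, the E-box, found in 37.4%, 35.7% and 72.3% of all 32851 promoters of the same length. The Ncor1 promoter shown, which lies inside the annotated gene, held TGTGGT at positions -230 and -93 from the start. The Hdac2 promoter held it at position -73. The other Ncor1 promoter, which overlaps the annotated 5′ end of the gene, held none, nor did both Sin3a promoters and the Ep300 promoter. Of the 7 promoters 2 held a RUNX sequence, beside 22.4% of all promoters (16.8% with TGTGGT and 6.45% with TGCGGT). A match describes the letters and is no evidence of binding.

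**Figure D2:**
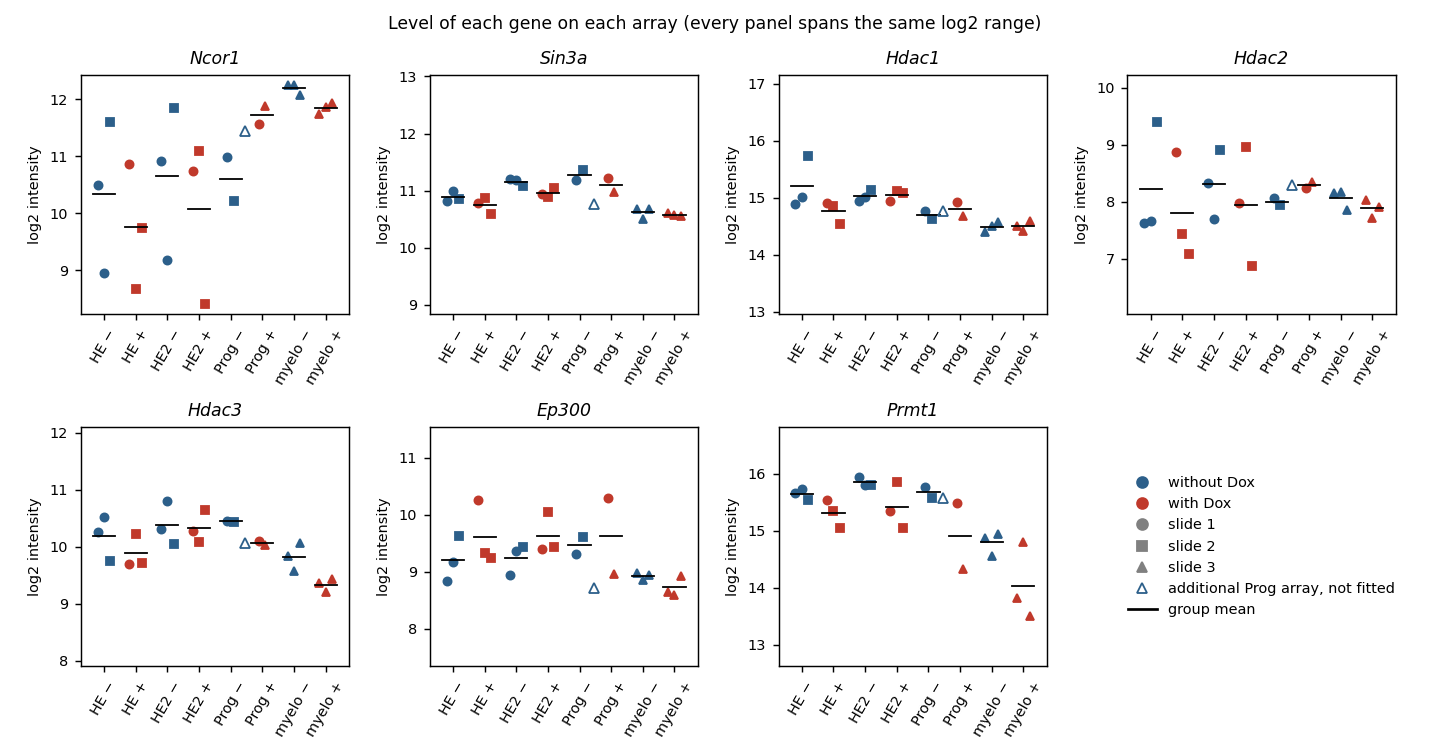
Level of each gene on each array. The y axis is log2 intensity and every panel spans the same range, points are arrays coloured by Dox with a shape for the slide, the open triangle is the additional array and lines are group means. Arrays of a group are spread widely for Ncor1 (8.41 to 11.85 in HE and HE2) and lie close together for Sin3a (10.59 to 11.20 there).

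Ncor1 encodes NCoR, the scaffold that holds HDAC3, and was the most variable of the 7 genes between arrays of a group. Its log2 intensity without Dox was 10.49, 8.94 and 11.60 in HE, 10.92, 9.17 and 11.85 in HE2, 10.98 and 10.22 in Prog, and 12.25, 12.25 and 12.07 in myeloidProg. With Dox it was 10.85, 8.67 and 9.74 in HE, 10.74, 11.08 and 8.41 in HE2, 11.56 and 11.87 in Prog, and 11.74, 11.86 and 11.93 in myeloidProg. Induced and uninduced arrays overlapped in HE and HE2, the induced Prog arrays both lay above the uninduced ones, and the induced myeloidProg arrays all lay below theirs. The fitted change was -0.59 in HE (SE 0.739, 95% interval -2.14 to 0.97), -0.57 in HE2 (adjusted P = 0.683), 1.12 in Prog (SE 0.905, 95% interval -0.79 to 3.02) and -0.35 in myeloidProg, and the mean over stages was -0.10 (SE 0.392, 95% interval -0.92 to 0.73, adjusted P = 0.874). When single arrays were left out, the change ran from -1.29 to 0.04 in HE, from -1.30 to 0.27 in HE2 and from -0.28 to 0.11 in the mean, so that its sign turned in all 3. One of the induced Prog arrays lay on slide 3, and within slide 1 the Prog difference between 1 array and 1 array was 0.58. Because all groups share 1 estimate of the spread, the wide HE and HE2 groups set the SE of the tight myeloidProg groups as well.

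Sin3a, the scaffold of the SIN3-HDAC complex, was the steadiest. Its log2 intensity without Dox was 10.82, 10.99 and 10.86 in HE, 11.20, 11.19 and 11.08 in HE2, 11.19 and 11.37 in Prog, and 10.67, 10.50 and 10.68 in myeloidProg. With Dox it was 10.79, 10.88 and 10.59 in HE, 10.95, 10.89 and 11.04 in HE2, 11.23 and 10.98 in Prog, and 10.60, 10.58 and 10.56 in myeloidProg. In HE2 all induced arrays lay below the uninduced ones and in the other stages the groups overlapped. The fitted change with Dox was -0.14, -0.20, -0.18 and -0.04 in HE, HE2, Prog and myeloidProg, with a mean of -0.14 (SE 0.0686, 95% interval -0.28 to 0.01, adjusted P = 0.133).

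On their representing probes the 3 deacetylase genes did not pass an adjusted P of 0.05 with Dox in any stage. HDAC3 is the enzyme of the NCoR complex. Its log2 intensity without Dox was 10.27, 10.53 and 9.76 in HE, 10.31, 10.81 and 10.05 in HE2, 10.46 and 10.43 in Prog, and 9.84, 9.57 and 10.08 in myeloidProg. With Dox it was 9.70, 10.23 and 9.72 in HE, 10.28, 10.08 and 10.65 in HE2, 10.11 and 10.03 in Prog, and 9.37, 9.20 and 9.44 in myeloidProg. The induced arrays lay below the uninduced ones without overlap in Prog and in myeloidProg, but the additional uninduced Prog array, at 10.08, lay between the induced Prog arrays. Counted as a further uninduced Prog array, it took the change in Prog to -0.25 (limma adjusted P = 0.674). The fitted change of Hdac3 was -0.30, -0.05, -0.38 and -0.49 in the order of the stages, and its mean of -0.30 (SE 0.122, 95% interval -0.56 to -0.05, unadjusted P = 0.0231) had an adjusted P of 0.0621. Leaving out single arrays brought that adjusted P to 0.05 or below in 5 of 22 fits.

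HDAC1 and HDAC2 are close relatives that work as a pair in SIN3 and NuRD complexes. Hdac1 without Dox had a log2 intensity of 14.89, 15.01 and 15.72 in HE, 14.93, 15.01 and 15.14 in HE2, 14.77 and 14.62 in Prog, and 14.39, 14.50 and 14.57 in myeloidProg. With Dox it was 14.91, 14.86 and 14.54 in HE, 14.93, 15.11 and 15.09 in HE2, 14.92 and 14.67 in Prog, and 14.50, 14.41 and 14.59 in myeloidProg. The groups with and without Dox overlapped in every stage. The fitted change was -0.44 in HE (95% interval -0.82 to -0.05, unadjusted P = 0.0286, adjusted P = 0.128), 0.02 in HE2, 0.10 in Prog and 0.01 in myeloidProg, and the interval of the mean over stages was -0.28 to 0.13. The change of Hdac1 in HE ran from -0.60 to -0.18 when single arrays were left out. Hdac2 ran from 6.87 to 9.39 over all arrays, with group means of 7.80 to 8.31, a range of means of 0.517 that is smaller than its spread between arrays of a group (SD 0.701). Its 10 spots on each array differed by a median SD of 0.121, less than the arrays did. The highest SD between spots of an array was 0.786, more than between arrays. The mean response of Hdac2 was -0.18 (95% interval -0.76 to 0.40, adjusted P = 0.657).

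The other probes of Hdac1 gave another picture. On the first of them the uninduced arrays of myeloidProg read 11.70, 11.53 and 11.68 and the induced ones 11.06, 10.92 and 10.99, with no overlap and a fitted change of -0.65 (SE 0.154, adjusted P = 0.00757). Its mean response over the 4 stages was -0.39 (SE 0.0818, adjusted P = 0.00102), whereas the representing probe gave -0.08 (adjusted P = 0.583). The second of them gave a mean response of -0.43 (adjusted P = 0.0408). The probes correlated with the representing probe over the arrays at r = 0.541 and 0.218 (22 arrays, as a description), so that a statement on Hdac1 depends on the probe read. Whether they bind different transcripts or copies of the gene was not tested.

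**Figure D3:**
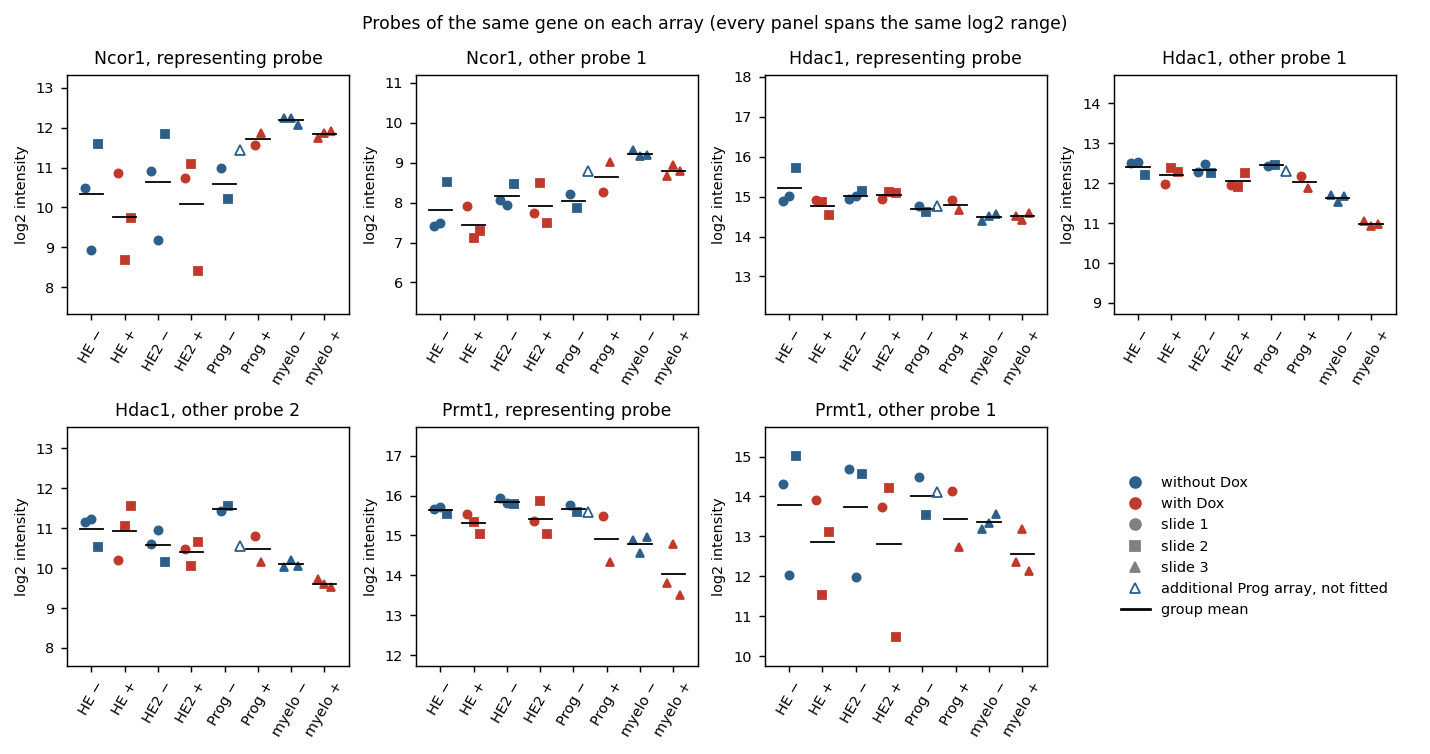
Probes of Ncor1, Hdac1 and Prmt1 on each array, in log2 intensity on panels of equal range, with points, shapes and lines as in the plot of the levels of all genes. The representing probe of Hdac1 hardly moves with Dox in myeloidProg (0.01), where its first other probe falls by 0.65 on the log2 scale.

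Ep300 was the gene of the 7 whose mean lay above 0 with Dox. Its log2 intensity without Dox was 8.84, 9.18 and 9.62 in HE, 8.94, 9.36 and 9.44 in HE2, 9.32 and 9.61 in Prog, and 8.98, 8.86 and 8.95 in myeloidProg. With Dox it was 10.26, 9.32 and 9.23 in HE, 9.39, 10.05 and 9.43 in HE2, 10.28 and 8.95 in Prog, and 8.64, 8.59 and 8.93 in myeloidProg. The groups overlapped in all 4 stages. The mean response was 0.18 (SE 0.168, 95% interval -0.17 to 0.53, adjusted P = 0.442), with 0.39 in HE, 0.38 in HE2, 0.16 in Prog and -0.21 in myeloidProg.

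Without overlap between groups as the criterion, Dox set apart 1 of 7 genes in HE (25.1% of all genes tested), 1 in HE2 (32.3%), 4 in Prog (49%) and 2 in myeloidProg (46.6%), so that none of these counts is a result about the 7 genes.

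From HE to myeloid progenitors 3 of the 7 genes changed at an adjusted P of at most 0.05, Ncor1 upward and Hdac1 and Prmt1 downward, and Sin3a fell from Prog to myeloidProg. None reached the threshold of P and fold together, with 0 of 7 from HE to HE2 (5.07% of all genes called), HE2 to Prog (5.39%), Prog to myeloidProg (13.9%) and HE to myeloidProg (26.3%). With Dox the counts were also 0 of 7, from HE to HE2 (3.1% of all genes), HE2 to Prog (7.36%) and Prog to myeloidProg (7.37%). At an adjusted P of at most 0.05 the 3 of 7 genes from HE to myeloidProg stand beside 49.8% of all genes (21.1% higher and 28.7% lower), and the 1 of 7 from Prog to myeloidProg beside 33.1% without Dox (19.2% lower) and 18.2% with Dox (8.86% lower). At that threshold 0 of 7 passed from HE to HE2 (10.6%) or HE2 to Prog (8.18%) without Dox. The median change over the 7 genes was -0.28 from HE to myeloidProg and -0.53 from Prog to myeloidProg, beside -0.09 and -0.12 over all genes.

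Ncor1 was higher in myeloidProg than in HE by 1.85 (SE 0.739, 95% interval 0.29 to 3.40, limma adjusted P = 0.0458), a 3.60-fold difference, and all myeloidProg arrays lay above all uninduced HE arrays. The adjusted P was at or below 0.05 in 15 of 35 alternative settings and above it when any of 14 arrays was left out, all 3 uninduced myeloidProg arrays among them. Without uninduced HE array 2 the change was 1.15 with an adjusted P of 0.236. A second Ncor1 probe read 7.42, 7.48 and 8.52 in HE and 9.31, 9.16 and 9.19 in myeloidProg without Dox, a rise of 1.41 (SE 0.306, adjusted P = 0.000853) that passed the threshold of P and fold. Both probes were thus higher in myeloidProg at an adjusted P of at most 0.05.

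Hdac1 was lower in myeloidProg than in HE by 1.64-fold (log2 -0.72, SE 0.184, 95% interval -1.10 to -0.33, adjusted P = 0.00341). Without uninduced HE array 3, the highest, the change was -0.46 with an adjusted P of 0.0228. The other probes of Hdac1 changed by -0.77 (adjusted P = 0.000405) and -0.88 (adjusted P = 0.0184). From Prog to myeloidProg without Dox the representing probe changed by -0.20 (adjusted P = 0.472), and the other probes by -0.81 (adjusted P = 0.0017) and -1.39 (adjusted P = 0.00357), of which the second was called.

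Prmt1 was lower in myeloidProg than in HE by -0.85 on the log2 scale (SE 0.306, 95% interval -1.49 to -0.20, adjusted P = 0.0283), and its myeloidProg arrays lay below all others without Dox. Leaving out uninduced HE array 1 or 2, or uninduced myeloidProg array 1 or 2, took its adjusted P to between 0.0507 and 0.0995. On the second Prmt1 probe this change was -0.42 (SE 0.931, 95% interval -2.38 to 1.53, adjusted P = 0.732), and its uninduced HE and myeloidProg arrays overlapped. Sin3a was lower in myeloidProg than in Prog by -0.66 (SE 0.145, 95% interval -0.96 to -0.36, adjusted P = 0.00205) without Dox and by -0.52 (SE 0.145, adjusted P = 0.0174) with Dox. Leaving out induced Prog array 1 took the change with Dox to -0.40 (adjusted P = 0.187), and leaving out induced myeloidProg array 3 to an adjusted P of 0.0539.

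Between HE and HE2 without Dox the arrays were matched by replicate number, each pair on 1 slide. The titles give numbers only, and the pairing was inferred from deviations that correlated across genes in these data. The part of the shared slide in this was not tested. With this matching, 4 of the 7 genes were higher in HE2 in all 3 pairs, beside 32.2% of all genes. Ncor1 was higher in HE2 than in HE of the same number by 0.43, 0.23 and 0.25, although its level differed between pairs by more than 2 log2 units. Sin3a was higher by 0.37, 0.20 and 0.23, Prmt1 by 0.28, 0.08 and 0.25, and Hdac3 by 0.04, 0.28 and 0.29. The HE2 arrays of Sin3a and Prmt1 all lay above their HE arrays, while those of Ncor1 and Hdac3 overlapped. A limma fit of these 6 arrays with the pair as a block, which leaves 2 residual degrees of freedom, gave 0.30 for Ncor1 (SE 0.110, 95% interval 0.02 to 0.59, adjusted P = 0.118) and 0.27 for Sin3a (SE 0.108, 95% interval -0.01 to 0.55, adjusted P = 0.145). Without the pairing the adjusted P was 0.232 for Sin3a, and with it 0 of 7 genes passed at 0.05, beside 17.9% of all genes.

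**Figure D4:**
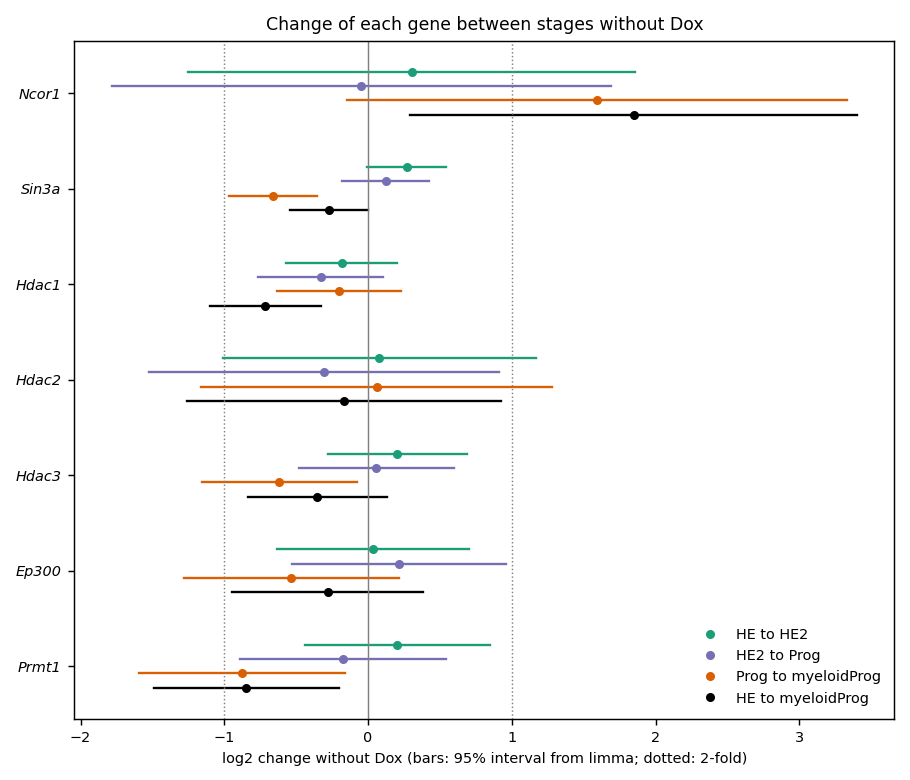
Change of each gene between stages without Dox, in log2, with 95% intervals from limma as bars and dotted lines at a 2-fold change. Intervals that end clear of 0 are those of Sin3a (-0.66), Hdac3 (-0.62) and Prmt1 (-0.88) from Prog to myeloidProg and of Ncor1 (1.85), Hdac1 (-0.72) and Prmt1 (-0.85) from HE to myeloidProg.

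Across the 4 stages without Dox, an F test passed for Sin3a (adjusted P = 0.00242), Hdac1 (0.0132) and Prmt1 (0.0299), 3 of 7 beside 51.7% of all genes, and not for Ncor1 (0.140), Hdac2 (0.954), Hdac3 (0.127) or Ep300 (0.584). Stage and slide are nearly the same split for the myeloidProg cells, since all their arrays lay on slide 3 with no early-stage array beside induced Prog array 2 and the additional array. With the slide as a block, the change from HE to myeloidProg was 1.56 for Ncor1 (adjusted P = 0.629), -0.42 for Hdac1 (adjusted P = 0.543) and 0.28 for Prmt1 (adjusted P = 0.836), and that of Sin3a from Prog to myeloidProg was -0.42 (adjusted P = 0.507) without Dox and -0.40 (adjusted P = 0.199) with Dox. In that fit 0 of 7 F tests passed, and the direction for Prmt1 turned. The culture also differed between these stages, and in myeloidProg 5 of 5 erythroid and 4 of 4 megakaryocyte markers were called higher than in HE, with summed log2 levels of 19.5 to 19.7 beside 15.0 to 15.4 for erythroid genes and of 14.8 to 15.3 beside 7.8 to 8.1 for megakaryocyte genes, of which 1 was not well above background in HE. The additional array allows 1 comparison on slide 3, between uninduced Prog and myeloidProg cells, with a technical array of Prog. On it Prmt1 read 15.58, as in Prog on the other slides and above the 14.56 to 14.95 of uninduced myeloidProg, while Sin3a read 10.76, below its 11.19 and 11.37 in Prog on the other slides and close to the 10.50 to 10.68 of myeloidProg. With this array as a further uninduced Prog array, Sin3a changed from Prog to myeloidProg by -0.49 (SE 0.15, limma adjusted P = 0.0187) and Prmt1 by -0.85 (SE 0.298, adjusted P = 0.0371, in place of 0.0567 without it). No HE array lay on slide 3, and for the changes from HE to myeloidProg slide, culture and stage cannot be told apart.

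Ordered by group mean, neighbouring groups mostly overlapped. Ncor1 was highest in uninduced myeloidProg (12.19 ± 0.10, SD, n = 3) and lowest in induced HE (9.75 ± 1.09, SD, n = 3), a range of means of 2.44. Prmt1 was highest in uninduced HE2 (15.85 ± 0.08, SD, n = 3) and lowest in induced myeloidProg (14.04 ± 0.68, SD, n = 3), a range of 1.81. The ranges of the other genes were 1.11 for Hdac3, 0.902 for Ep300, 0.716 for Hdac1, 0.701 for Sin3a and 0.517 for Hdac2. Among neighbours in the order, the arrays did not overlap for uninduced and induced myeloidProg in Ncor1 and in Hdac3, for uninduced HE2 and uninduced Prog in Prmt1, and for uninduced HE2 and induced Prog and for uninduced Prog and induced myeloidProg in Hdac1. Each comparison was between levels of a single probe, and levels were not compared between genes.

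Arrays of the same group differed far more for some of the genes than for others. The SD between arrays of a group was 1.01 for Ncor1, higher than for 99.4% of 14920 genes, 0.701 for Hdac2 (95.4%), 0.412 for Ep300 (72.8%), 0.396 for Prmt1 (69.7%), 0.282 for Hdac3 (42.9%), 0.207 for Hdac1 (18.4%) and 0.102 for Sin3a, higher than for 0.543%. The median over all genes was 0.308. After each group's mean was taken off, Ncor1 and Hdac2 deviated together over the 22 arrays (r = 0.84) and both opposite to Hdac3 (r = -0.87 and -0.74), as a description. The second Prmt1 probe deviated with Ncor1 (r = 0.916) and the first other probe of Hdac1 against it (r = -0.841), whereas the representing probe of Prmt1 deviated with it little (r = 0.16). The pattern was not particular to these genes, for 1121 genes correlated above 0.8 and 553 below -0.8 with the deviations of Ncor1, 11.2% of 14919. The wide deviations lay in HE and HE2, where each of the 4 groups held arrays well above and well below its mean, and arrays of slides 1 and 2 were found on both sides. The deviations correlated with the share of spots well above background at r = 0.35 for Ncor1, 0.52 for Hdac1, 0.50 for Hdac2, 0.36 for Sin3a, 0.53 for Ep300, 0.49 for Prmt1 and -0.35 for Hdac3 (22 arrays), and what set these arrays apart was not tested.

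**Figure D5:**
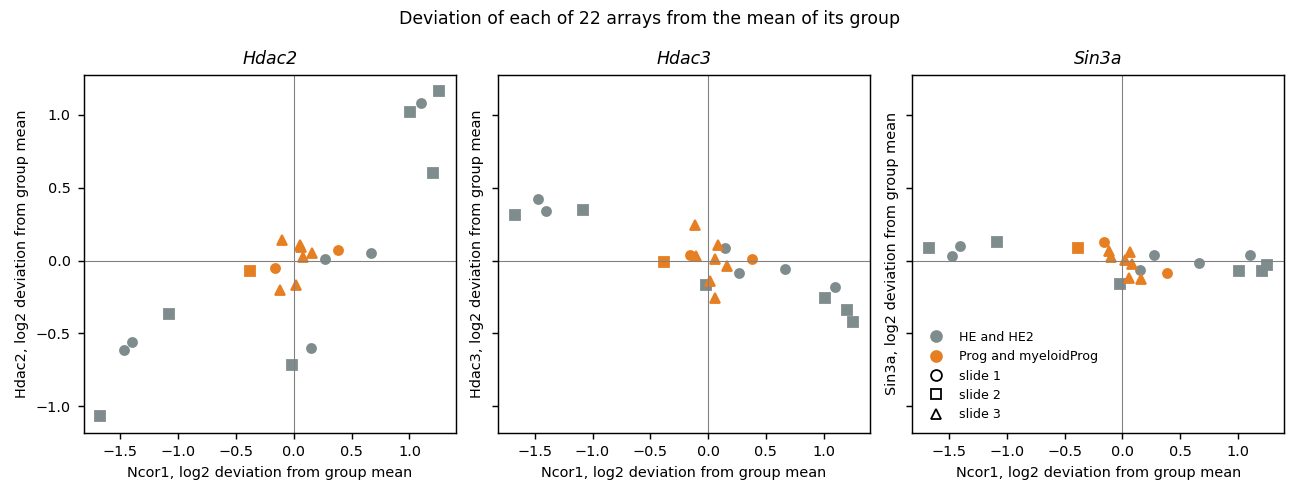
Deviation of each of 22 arrays from the mean of its group, in log2, for Ncor1 on the x axis and Hdac2, Hdac3 or Sin3a on the y axis, with grey points for HE and HE2, orange points for Prog and myeloidProg, and a shape for the slide. Arrays high in Ncor1 tend to be high in Hdac2 (r = 0.84) and low in Hdac3 (r = -0.87), and Sin3a stays near 0 throughout (SD 0.102).

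The genes most like each of the 7 were taken as those with the highest Pearson correlation of log2 intensity over the 22 arrays, which share the groups, slides and normalization. For Ncor1 these were Bms1 (0.981), Ftsj3 (0.978) and Coq5 (0.976), and for Sin3a Cep131 (0.958), Cap2 (0.930) and Zfp184 (0.925). For Hdac1 they were Bbs7 (0.903), Nae1 (0.895) and Tm9sf1 (0.888), for Hdac2 Taf1b (0.942), Strap (0.938) and Lmln (0.918), and for Hdac3 Hnrnpd (0.915), Nol6 (0.909) and Romo1 (0.906). For Ep300 they were Cpsf7 (0.904), Rbm6 (0.895) and Rfk (0.894), and for Prmt1 Top3b (0.931), Hddc2 (0.925) and Arl2bp (0.920). Among the 7 genes themselves the highest correlation was that of Hdac3 and Sin3a (0.796), followed by Sin3a and Prmt1 (0.669), and the lowest that of Ncor1 and Hdac3 (-0.666), although their proteins sit in one complex.

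The wider complexes and enzyme families held a few genes that were called with Dox. Of all genes 7.09% were called in HE, 7.22% in HE2, 3.73% in Prog, 6.31% in myeloidProg and 5.76% in the mean. Beside such shares a few calls are not a result about these complexes and families. Of the 12 other SIN3 complex genes, 0 were called with Dox in any stage or in the mean. The value of Sin3b, the relative of Sin3a, was -0.06 in the mean over stages (adjusted P = 0.667). The 9 NuRD genes had 2 called, both lower in HE, the remodelling enzyme Chd3 (-1.37, SE 0.302, adjusted P = 0.00389) and Mta3 (-1.37, SE 0.194, adjusted P = 7.42e-05), and 0 in the other stages, where 7.09% of all genes were called in HE. In the mean over stages 4 of the 9 were lower and 1 higher at an adjusted P of at most 0.05, beside 16.5% of all genes lower and 35.4% in either direction. The median mean response was -0.09 over the SIN3 genes and -0.07 over the NuRD genes, beside -0.03 over all genes.

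Among the 7 other deacetylases tested, Hdac7, a class II enzyme of endothelial cells and lymphocytes, was the gene called higher with Dox. Its log2 intensity in myeloidProg was 11.74 to 11.96 without and 13.59 to 13.76 with Dox, a rise of 1.85 (SE 0.246, adjusted P = 3.99e-05), and it rose by 1.44 in Prog (SE 0.301, adjusted P = 0.00672) and by 1.10 in the mean over stages (adjusted P = 3.17e-06). The response of Hdac7 in myeloidProg exceeded that in HE by 1.62 (SE 0.347, adjusted P = 0.0064). The part of the different timing of Dox in this was not tested. Endothelial markers rose in the same cells, 5 of 6 being called higher in myeloidProg with a summed log2 level of 13.0 to 13.5 without and 15.3 to 15.6 with Dox, and their part in the rise of Hdac7 was not tested.

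Of the 11 other acetyltransferases and coactivators, Ncoa3, a nuclear receptor coactivator that binds p300, was called higher with Dox in myeloidProg, from 13.58 to 13.66 up to 14.72 to 15.02 (1.23, SE 0.309, adjusted P = 0.011), and in the mean over stages (1.12, adjusted P = 3.49e-05). The value of Crebbp, the close relative of Ep300, was 0.17 in the mean (adjusted P = 0.357). Among the 7 other arginine methyltransferases tested, Prmt2 was called higher with Dox in myeloidProg (1.04, SE 0.212, adjusted P = 0.00239). In the mean over stages, 3 of the 7 were lower and 1 higher at an adjusted P of at most 0.05, with a median of -0.52, beside 16.5% of all genes lower and 35.4% in either direction. The lower ones include Prmt5 (-0.59, SE 0.101, adjusted P = 0.000161) and Carm1 (-0.52, SE 0.163, adjusted P = 0.0188), named after their values were seen.

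The ETO homologues Cbfa2t2 and Cbfa2t3 can form complexes with the ETO part of the fusion. Cbfa2t3 was called lower with Dox in HE2, where its log2 intensity ran from 12.73 to 13.44 without and from 11.48 to 12.17 with Dox (-1.31, SE 0.303, adjusted P = 0.00521). In the mean over stages it was lower by -0.90 (SE 0.160, adjusted P = 0.000267), below 2-fold, and the value of Cbfa2t2 was 0.16. From HE to myeloidProg without Dox, Cbfa2t3 was called higher (1.33), as were Ncoa1 (2.14), Ncoa2 (1.11), Hdac9 (1.40) and Prmt9 (1.04). Hdac7 (-2.61), Chd3 (-2.33) and Kat2a (-1.21) were called lower. Of all genes 26.3% were called in this comparison, in which slide, culture and stage cannot be told apart.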

How the data were processed

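RNA was hybridised in 1 colour to Agilent arrays. Spot and background intensity were deposited as Feature Extraction read them (version 10.7.3.1 in the file headers, 10.7.1.1 in the submitters' processing notes), not normalized between arrays, and a table of log2 values that they had background corrected and quantile normalized, used here as an alternative. Feature intensities (medians) were background corrected with normexp and an offset of 16. After 3671 control spots and spots marked as outliers were left out, quantile normalization of the 23 arrays and averaging of 59305 spots gave 55681 probes. Of these, 26582 were named by matching accessions to a RefSeq list of mouse assembly GRCm38.p6, used for names and promoter sequences. Genes were represented by the probe of highest mean and tested if it reached a log2 intensity of 6.5 on at least 1 array. Group means were fitted over 22 arrays (14 residual degrees of freedom) by lmFit and eBayes (limma 3.58.1, R 4.3.3, jsonlite 2.0.0 and version 1.17.8 of data.table). P values were adjusted by Benjamini and Hochberg over all genes tested. The number of arrays limits the precision, and P values measure the spread between arrays.

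The 7 genes, the lists of related genes and the markers were chosen with earlier results of these data known. Named from the lists are genes past the threshold of P and fold, up to 4 per list. Sin3b, Crebbp and Cbfa2t2, as relatives of genes described, and Prmt5 and Carm1 were named outside this rule, after their values were seen. The fit was tested on simulated data. Uninduced HE and HE2 arrays were paired by replicate number because their deviations from group means correlated across genes at 0.394, 0.795 and 0.608. Induced HE and HE2 arrays of the same number did not pair (0.191, -0.476 and -0.012). For induced and uninduced arrays of a stage the numbers did not pair the arrays (HE 0.694 for number 2 but -0.055 and -0.095 for 1 and 3). Title and description of induced myeloidProg array 3 differ on whether it is a biological or a technical replicate, and it was used as replicate 3.

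Tried as alternatives were the deposited log2 values, scaling by the 75th percentile, normexp with an offset of 50 or left out, separate normalization of the early stages, other filters, other probes, other thresholds, a fit of only the groups compared, the additional array as a replicate, slide, scan day or replicate number as a block, the pair as a block in uninduced HE and HE2 arrays alone (chosen after seeing the data), and leaving out each array. Sequences were not printed for Hdac1 or Hdac3, and the list of other NCoR complex genes is not reported here.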

Additional observations from a re-analysis of the deposited data

How the results depend on the processing

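Of the counts of genes called, 615 stayed within 1.5 times the main count under the alternatives and 13 moved, and no change of a gene was called in the direction opposite to its main value. At an adjusted P of at most 0.05 with no minimum change, 1 of 7 genes passed in the mean response to Dox, 1 from Prog to myeloidProg without Dox, 3 from HE to myeloidProg and 1 from Prog to myeloidProg with Dox, all 0 at the main threshold, and with a 2-fold minimum beside it 1 passed from HE to myeloidProg. With an unadjusted P of at most 0.001, 1 gene in place of 3 varied over the stages. When limma was fitted to the compared groups alone, 1 gene was called from Prog to myeloidProg without Dox (Ncor1, 1.59, adjusted P = 0.00511) and 1 in the difference of the Dox response between myeloidProg and Prog (Ncor1, -1.46, adjusted P = 0.0476). With slide or scan day as a block, 0 in place of 3 genes varied over the stages; the cause was not tested. Leaving out single arrays, 0 to 1 genes were called with Dox in myeloidProg (Prmt1, -1.14, without induced array 2), 0 to 1 from Prog to myeloidProg with Dox (Prmt1, -1.25, without that array, and Ep300, -1.56, without induced Prog array 2), and 2 to 3 varied over the stages. The replicate number as a block changed none of these counts at the main threshold (0 of 7 for each response to Dox and 3 for the stages), and the mean response of Prmt1 was -0.57 with an adjusted P of 0.0102. Over 34 alternatives, those of its other probe not counted, that mean ran from -0.84 to -0.42, with an adjusted P of at most 0.05 in 33. A fit of the uninduced HE and HE2 arrays alone with the replicate number as a block, chosen after seeing the data, called 0 of 7 genes. Scaling to the 75th percentile moved the median of all genes by -0.17 for Dox in Prog, -0.10 in myeloidProg, -0.18 from Prog and -0.13 from HE to myeloidProg without Dox, and -0.10 from Prog to myeloidProg with Dox, and changed no count of genes called.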
